A study of Mus musculus with 13 samples.

Results

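The 10 genes described here are Atf4, Atf3, Ddit3, Ddit4, Trib3, Chac1, Asns, Vldlr, Cebpb and Nupr1, the gene of the transcription factor ATF4 together with genes that are known to respond in the same stress program. They were chosen by name, by matching the gene symbol in a table of raw RNA-seq counts for 24079 genes, and all 10 were found. CGR8 cells, a single line of mouse embryonic stem (ES) cells kept without feeder cells on gelatin with serum and LIF, were cultured for 48 h either with 0.5% DMSO, the solvent, as the control or with 10 µM PhenDC3 dissolved to the same DMSO content. PhenDC3 is a bisquinolinium compound that binds and stabilises G-quadruplexes (G4), the 4-stranded structures that guanine-rich DNA and RNA can fold into. RNA was sequenced from 3 control and 3 PhenDC3 samples, and replication origins were mapped as short nascent strands (SNS-seq) in 3 control and 2 PhenDC3 samples. The labels do not state that the RNA replicates were separate cultures, so the p-values measure only the spread between these samples, which may be technical.

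In the integrated stress response, kinases that sense amino acid shortage, unfolded protein in the endoplasmic reticulum (ER), double-stranded RNA or a lack of heme phosphorylate the translation initiation factor eIF2, and general protein synthesis slows. The Atf4 mRNA escapes this block through open reading frames in its leader, so ATF4 protein can increase without a change of its mRNA. ATF4 then binds DNA, often with C/EBP proteins, at composite sites of the form TGATGNAAN (C/EBP-ATF core) and switches on genes of amino acid supply, tRNA charging and, under lasting stress, cell death.

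The C/EBP-ATF core was looked for on both strands of the RefSeq promoter windows (GRCm38.p6), which run from 250 bases before to 50 bases after a start site. A match was present in 6 of the 11 windows of the members, 1 in each of 6 members, against 3.95% of the 32851 windows of all genes. The sites of these 6 members are shown because ATF4 is known to bind this sequence. They are written 5′ to 3′ on the strand that reads TGATGNAAN, with 10 bases on each side, and capitals mark the core.
Asns, chr6:7693214-7693242, minus strand: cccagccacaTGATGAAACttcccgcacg
Atf3, chr1:191183426-191183454, plus strand: gcggacttggTGATGCAAGtgcgagaagg
Chac1, chr2:119351038-119351066, minus strand: ctggcaggagTGATGCAACggcagggaag
Nupr1, chr7:126625563-126625591, plus strand: aagccctgtcTGATGCAATctggcccttt
Trib3, chr2:152344029-152344057, plus strand: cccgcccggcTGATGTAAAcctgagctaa
Vldlr, chr19:27216809-27216837, minus strand: ctaggagcgcTGATGCAACtattgctgct
The form TGATGCAA, which is part of the core as searched, was present in 4 of them (Atf3, Chac1, Nupr1 and Vldlr) against 0.895% of all windows. In Asns the core began 23 bases before the start site and lay on the strand of the gene. The cores of Atf3 and Nupr1 both spanned 111 to 103 bases before the start site, on the other strand. That of Trib3 lay 14 to 22 bases into the transcribed sequence. No match was present in the windows of Atf4, Ddit3, Ddit4 and Cebpb. A match describes the letters of the window and is not a measured binding site.

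As whole stretches, the 250 bases upstream of Atf3, the member with the largest rise, and of Chac1, the only member that passed the test as lower, are shown on the strand of the gene with the core in capitals. Here the core is read from its other strand, so it begins with the complement of its last base.
Atf3, chr1:191183334-191183583, minus strand: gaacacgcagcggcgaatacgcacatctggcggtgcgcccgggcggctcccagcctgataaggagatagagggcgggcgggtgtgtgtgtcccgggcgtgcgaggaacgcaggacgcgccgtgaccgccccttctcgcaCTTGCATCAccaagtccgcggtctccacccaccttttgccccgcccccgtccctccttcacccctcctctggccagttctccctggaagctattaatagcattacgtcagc
Chac1, chr2:119350992-119351241, plus strand: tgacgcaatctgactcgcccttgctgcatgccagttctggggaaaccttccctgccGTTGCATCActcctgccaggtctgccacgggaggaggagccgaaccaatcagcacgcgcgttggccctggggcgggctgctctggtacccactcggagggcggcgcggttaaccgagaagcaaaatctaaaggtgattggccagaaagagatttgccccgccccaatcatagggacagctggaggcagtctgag
The cAMP response element (TGACGTCA) was in no window of a member and in 1.79% of all windows, and the ER stress element was in no window of a member and in 0.119% of all windows. Since PhenDC3 binds G4, runs of 4 blocks of at least 3 G separated by 1 to 7 bases were also looked for on both strands. Such a run was present in 4 of the 11 windows of the members (those of Atf3, Cebpb, Nupr1 and Trib3), against 18.6% of all windows. With blocks of at least 2 G it was present in 11 of the 11 windows of the members and in 77.4% of all windows.

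The 6 RNA-seq samples had between 22232014 and 29486502 counts. Values are given as CPM, the counts of a gene relative to the total of its library, scaled by the relative log expression of all genes, and differences as log2 fold changes of PhenDC3 over control from edgeR's quasi-likelihood test, with p-values adjusted by Benjamini-Hochberg over the 13972 genes tested. The summed level of 8 ES cell markers was 7134 to 8090 CPM in controls and 8207 to 9600 CPM with PhenDC3, led by Dppa5a (2282 and 3359 CPM on average). The list did not move one way, since 3 of its genes (Dppa5a, Nanog and Klf4) were higher and 2 (Pou5f1 and Tdgf1) were lower with PhenDC3. Of 6 fibroblast markers the sum was 8.39 to 8.54 CPM in controls and 6.02 to 8.53 CPM with PhenDC3, led by Thy1 (5.03 and 2.02 CPM on average), with Lum at 0 counts in every sample. Thy1 passed as lower, while the other 3 of the 4 tested had log2 fold changes above 0 and did not pass. Of 6 primitive endoderm markers, 4 were higher with PhenDC3, and their sum was 47.4 to 111 CPM in controls and 96.4 to 158 CPM with PhenDC3, led by Dab2 (46.2 and 53.3 CPM on average). Mesoderm and neural markers summed to 12.9 to 17.3 CPM in controls and 9.85 to 10.4 CPM with PhenDC3, led by Pax6 (7.13 and 1.92 CPM on average). Of the 4 tested, 2 had log2 fold changes above 0 and 2 below, and only Pax6 passed, as lower. The ribosomal RNA precursor Rn45s took 2.55 to 5.70% of the counts of controls and 0.172 to 1.43% of those of PhenDC3 samples. The part of the primitive endoderm markers and of Rn45s in the results below was not tested, and in bulk RNA fewer expressing cells cannot be told apart from less RNA per cell.

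Of the 10 members, 4 were higher with PhenDC3 (Atf3, Ddit3, Ddit4 and Asns), 1 was lower (Chac1) and 5 did not pass the test (edgeR, adjusted p of at most 0.05). The ATF4 response genes thus did not move as a unit, and Atf4 itself was among those that did not pass. This fit did not pair samples by replicate number. With a replicate block 4 members were higher and 3 were lower (Chac1, Trib3 and Atf4). Over all genes tested, 36.8% passed in either direction, 18.0% as higher and 18.7% as lower, so that passing was in itself frequent in this comparison. The median log2 fold change of the members was -0.03, beside 0.01 over all genes. The values of the 3 PhenDC3 samples lay wholly above those of the 3 controls in the same 4 members that passed as higher, where 25.0% of all genes had such a gap, and wholly below in 0 members, where 25.6% of all genes did. In either direction, 50.6% of all genes had groups that did not overlap.

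**Figure D1:**
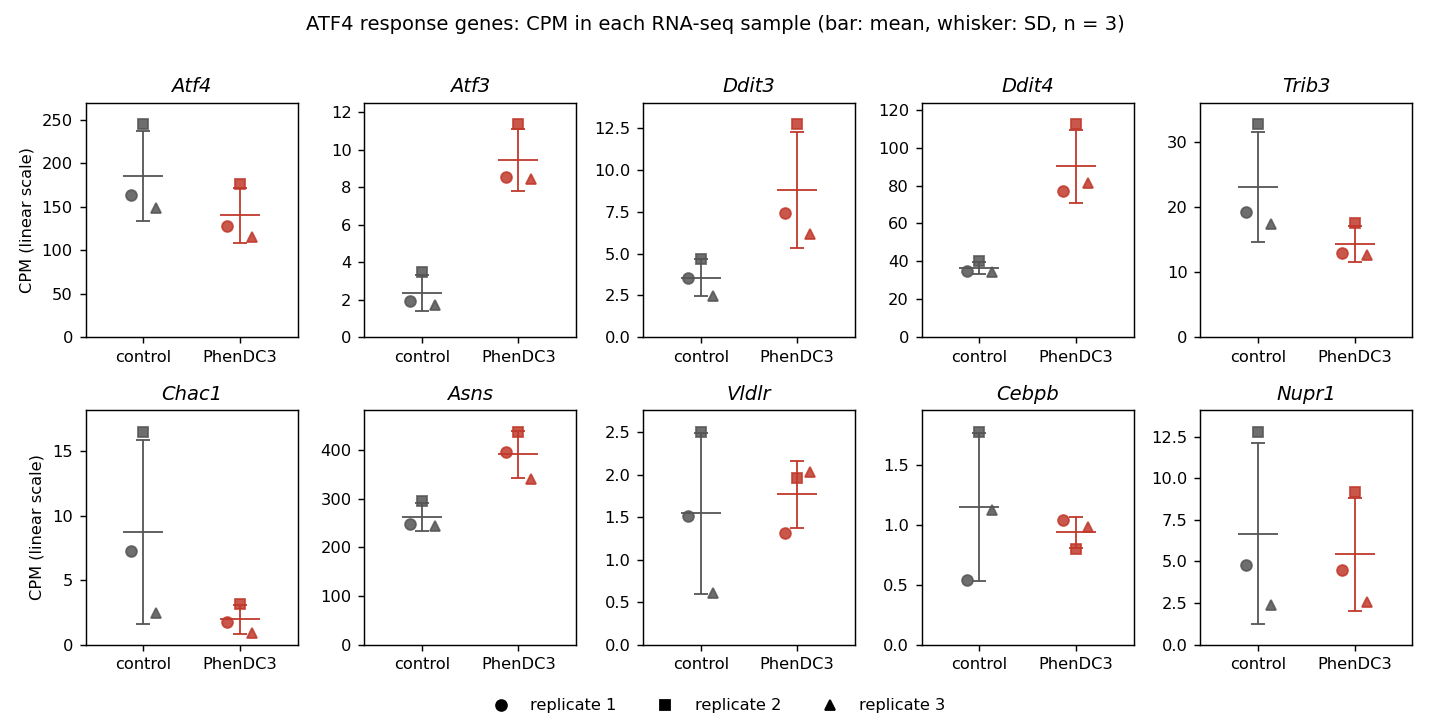
CPM (counts relative to library size, linear axis from 0, a separate scale for each gene) of the 10 ATF4 response genes in each of 3 control (grey) and 3 PhenDC3 (red) samples, with the replicate number as the symbol, the mean as a bar and the SD as whiskers. The groups are separate only for Atf3, Ddit3, Ddit4 and Asns, and replicate 2 (squares) is the highest sample of both conditions in 8 of 10 genes.

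Atf4 (chr15:80255184-80257545, plus strand) encodes the transcription factor at the centre of the program. Its level was 163, 245 and 148 CPM in control replicates 1, 2 and 3, and 128, 176 and 116 CPM in PhenDC3 replicates 1, 2 and 3. The groups overlapped, since PhenDC3 replicate 2 lay above control replicates 1 and 3. The mean was 186 ± 52.1 CPM in controls and 140 ± 31.8 CPM with PhenDC3 (SD, n = 3 each). The log2 fold change was -0.41 (SE 0.22, 95% confidence interval -0.90 to 0.08), and edgeR's adjusted p was 0.169. Each PhenDC3 sample lay below the control of the same replicate number, and with a replicate block the log2 fold change was -0.40 (edgeR adjusted p = 0.00125). Without control replicate 2 it was -0.16 (edgeR adjusted p = 0.517). Over all alternatives the adjusted p ranged from 0.00125 to 0.517. The mRNA level does not report on translation.

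Atf3, Ddit3 and Cebpb encode transcription factors of the bZIP class that act with or downstream of ATF4. Atf3 (chr1:191170296-191183333, minus strand), an early stress-response gene, stood at 1.92, 3.46 and 1.69 CPM in the controls and at 8.57, 11.4 and 8.42 CPM in the PhenDC3 samples. All PhenDC3 samples lay far above all controls, whose raw counts of 39 to 76 were low but well above 0. The mean rose from 2.36 ± 0.967 to 9.46 ± 1.66 CPM (SD, n = 3 each), a 4.03-fold increase. On the log2 scale this was 2.01 (SE 0.28, 95% confidence interval 1.37 to 2.65), with an adjusted p of 0.000906 by edgeR, the largest rise among the members.

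Ddit3 (chr10:127290793-127296291, plus strand) encodes CHOP, a factor tied to cell death under lasting ER stress. Its level was 3.51, 4.70 and 2.46 CPM in the controls and 7.46, 12.8 and 6.17 CPM in the PhenDC3 samples. The groups did not overlap, although PhenDC3 replicate 2 stood well above the other two. The mean rose 2.47-fold from 3.56 ± 1.12 to 8.79 ± 3.49 CPM (SD, n = 3 each), a log2 fold change of 1.30 (SE 0.32, edgeR adjusted p = 0.0124). The ends of Ddit3 overlap with Mbd6 by 77 bases and with Mars1, the methionyl-tRNA synthetase gene, by 71 bases on the opposite strand. The strand setting of the counting is not given in the sources used here, and Mars1, listed as Mars, fell (log2 fold change -0.48, edgeR adjusted p = 0.0113).

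Cebpb (chr2:167688915-167690432, plus strand), a C/EBP partner of ATF4, was close to the lower limit of what could be measured, with raw counts of 15 to 39. The controls stood at 0.543, 1.78 and 1.12 CPM and the PhenDC3 samples at 1.04, 0.795 and 0.980 CPM. All PhenDC3 values lay within the range of the controls. The log2 fold change was -0.26 (SE 0.42, 95% confidence interval -1.21 to 0.68, edgeR adjusted p = 0.653), and a difference was not detectable at this depth.

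Ddit4 and Asns are targets with metabolic functions, and both rose. Ddit4 (chr10:59949675-59951770, minus strand), which encodes the mTORC1 inhibitor REDD1, had 34.9, 40.3 and 34.4 CPM in the controls and 77.1, 112.5 and 81.2 CPM in the PhenDC3 samples. The controls were close together, and the lowest PhenDC3 sample lay well above the highest control. The mean rose 2.47-fold from 36.5 ± 3.27 to 90.3 ± 19.4 CPM (SD, n = 3 each), a log2 fold change of 1.30 (SE 0.16, 95% confidence interval 0.94 to 1.67, edgeR adjusted p = 0.000486). Its fold was the same as that of Ddit3, with a smaller error and higher counts.

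Asns (chr6:7675165-7693209, minus strand) encodes asparagine synthetase, a classical target of the amino acid arm of the response. It was the most abundant member, at 249, 296 and 245 CPM in the controls and 396, 439 and 341 CPM in the PhenDC3 samples. No PhenDC3 sample overlapped with a control. The mean rose from 263 ± 28.6 to 391.8 ± 49.1 CPM (SD, n = 3 each), which was 1.49-fold or 0.57 on the log2 scale (SE 0.13, 95% confidence interval 0.27 to 0.88, edgeR adjusted p = 0.00982).

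Chac1 and Trib3 encode proteins that act late in the program or limit it. Chac1 (chr2:119351242-119354326, plus strand), a glutathione-degrading enzyme, had 7.24, 16.5 and 2.46 CPM in the controls and 1.77, 3.18 and 0.908 CPM in the PhenDC3 samples. The controls were widely spread, and PhenDC3 replicate 2 lay above control replicate 3, so the groups overlapped. The mean was 8.74 ± 7.14 CPM in controls and 1.95 ± 1.15 CPM with PhenDC3 (SD, n = 3 each). The log2 fold change was -2.17 (SE 0.65, 95% confidence interval -3.64 to -0.70, edgeR adjusted p = 0.0289). This call was lost in several of the fits that left out 1 library, which have fewer samples, though the log2 fold change stayed below 0 in them. Without control replicate 2 the log2 fold change was -1.34 (edgeR adjusted p = 0.0841). The adjusted p was 0.0607 without control replicate 1, 0.091 without PhenDC3 replicate 1 and 0.0846 without PhenDC3 replicate 3 (log2 fold change -1.82). It was 0.115 without the filter on low counts. The call was kept without control replicate 3 (log2 fold change -2.62, edgeR adjusted p = 0.00373) and with DESeq2 (adjusted p = 0.0376). Over all alternatives the adjusted p ranged from 1.08e-06 (replicate block) to 0.115.

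Trib3 (chr2:152337425-152344060, minus strand), a pseudokinase that binds and restrains ATF4 and AKT, had 19.2, 32.8 and 17.3 CPM in the controls and 12.9, 17.5 and 12.6 CPM in the PhenDC3 samples. The groups met at one point, PhenDC3 replicate 2 being level with control replicate 3. The mean was 23.1 ± 8.43 CPM in controls and 14.3 ± 2.73 CPM with PhenDC3 (SD, n = 3 each). The log2 fold change was -0.69 (SE 0.25) with an edgeR adjusted p of 0.0553, just outside the threshold, and with DESeq2 the adjusted p was 0.0224. It was 0.0469 without the filter, 0.0213 without control replicate 3 and 0.0396 without PhenDC3 replicate 2 (edgeR). Over all alternatives it ranged from 0.000404 (replicate block) to 0.161.

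Vldlr (chr19:27216480-27254231, plus strand), the receptor for very-low-density lipoprotein, was listed with raw counts of 14 to 56. It had 1.52, 2.51 and 0.605 CPM in the controls and 1.32, 1.97 and 2.03 CPM in the PhenDC3 samples. The PhenDC3 samples lay within the range of the controls. Its log2 fold change was 0.20 (SE 0.44, 95% confidence interval -0.80 to 1.20, edgeR adjusted p = 0.75).

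Nupr1 (chr7:126623246-126625470, minus strand), a small stress-induced chromatin protein, had 4.81, 12.8 and 2.38 CPM in the controls and 4.51, 9.20 and 2.58 CPM in the PhenDC3 samples. Within each condition the replicates differed far more than the conditions did. The log2 fold change was -0.30 (SE 0.60, 95% confidence interval -1.66 to 1.07, edgeR adjusted p = 0.726). Annotated genes lie on the opposite strand over the whole of Vldlr (Gm35438) and Nupr1 (Gm39087). The libraries were made with a stranded mRNA kit, but whether the counting used the strand is not given. The counts of these genes may therefore hold reads of both strands.

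**Figure D2:**
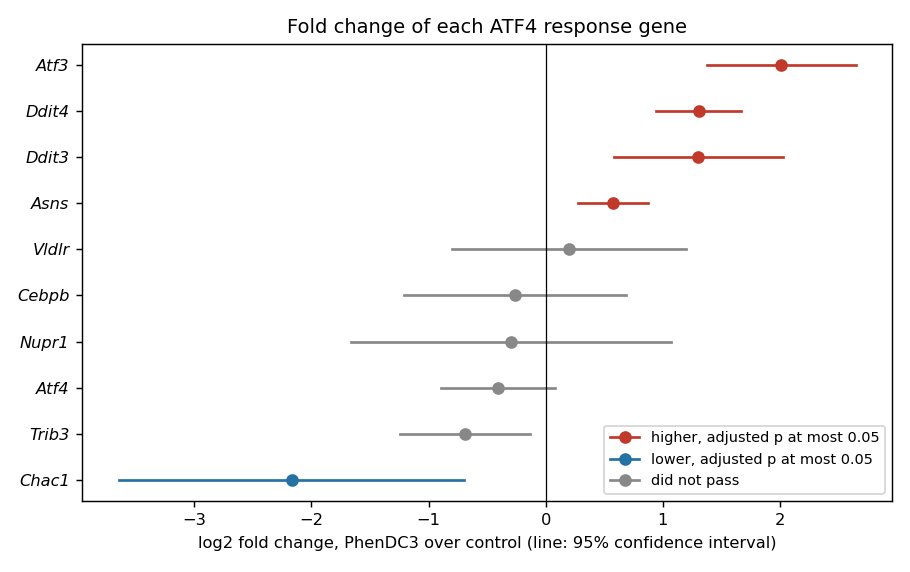
Log2 fold change of PhenDC3 over control for each ATF4 response gene (points) with its 95% confidence interval (lines) from edgeR, n = 3 against 3. The intervals of Atf3, Ddit4, Ddit3 and Asns lie above 0 and that of Chac1 below 0, while that of Trib3 excludes 0 without passing the adjusted threshold.

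The members differed widely in abundance. Divided by the length of the gene's exons, the mean CPM per kb in controls and PhenDC3 samples was 134 and 200 for Asns, and 107 and 80.9 for Atf4. Ddit4 followed at 21.7 and 53.6 CPM per kb. A middle group held Trib3 (11.3 and 6.99 CPM per kb), Nupr1 (10.7 and 8.67 CPM per kb), Chac1 (5.57 and 1.24 CPM per kb) and Ddit3 (4.08 and 10.1 CPM per kb). Atf3 (1.19 and 4.78 CPM per kb), Cebpb (0.757 and 0.618 CPM per kb) and Vldlr (0.176 and 0.202 CPM per kb) were the lowest. This grouping follows the control means. In controls the neighbours Asns and Atf4, and Trib3, Nupr1 and Chac1, overlapped in their single samples. So did Chac1 and Ddit3, and Atf3 and Cebpb. Nupr1 also overlapped with Ddit4 and with Ddit3, and Chac1 with Atf3. These parts of the order, and the borders of the middle group, are therefore not resolved. With PhenDC3 the order differed, since every sample of Ddit3 and every sample of Atf3 stood above every sample of Chac1 in CPM per kb.

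The rest of the pathway was described with 7 lists around the members, which together held 107 genes. Of the 103 genes that could be tested, 4 rose and 36 fell (edgeR, adjusted p of at most 0.05), against 18.0% and 18.7% of all genes, and the median log2 fold change was -0.24. Most of the falls were in genes of amino acid supply and tRNA charging, while no gene of ER protein folding passed. These counts describe the lists, which were chosen with earlier results of these data known, and were not compared with other lists.

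The eIF2 list held the 4 eIF2 kinases, the subunits of eIF2 and of its exchange factor eIF2B, and the phosphatase subunits that reverse the response. Of 15 genes, 1 rose and 3 fell, beside 18.0% and 18.7% of all genes tested. Eif2s2, the beta subunit of eIF2, rose (log2 fold change 0.77, edgeR adjusted p = 0.00105), from 838 ± 70.3 to 1433 ± 91.8 CPM (SD, n = 3 each). The falls were smaller, at -0.48 for Eif2b2, -0.42 for Eif2b1 and -0.39 for Eif2s1 (log2 fold change). Without PhenDC3 replicate 1 these 3 falls had edgeR adjusted p of 0.0523, 0.0529 and 0.0676, and without any scaling beyond total counts 0.0839, 0.0548 and 0.0918, so they were not past the threshold under either. With total counts alone the list had 3 genes higher and 0 lower, so that its balance turned round. Eif2s1 also missed without control replicate 1 (0.0528) and without PhenDC3 replicate 2 (0.0701), and Eif2b2 without PhenDC3 replicate 3 (0.0665). The kinase genes did not pass.

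Of 17 tested partners and further targets of ATF4, 3 rose and 3 fell, which is near the 18.0% and 18.7% of all genes tested. Trp53inp1, which p53 also controls, rose most (log2 fold change 2.14, edgeR adjusted p = 5e-05). Jdp2, a bZIP repressor, rose by 1.07 on the log2 scale (edgeR adjusted p = 0.0165), although its adjusted p was 0.0578 without control replicate 1 and 0.051 without PhenDC3 replicate 2. Cth, which makes cysteine from cystathionine, rose by 0.77 on the log2 scale (edgeR adjusted p = 0.00339). Stc2, a secreted stress glycoprotein, fell by 1.27, and Txnip, an inhibitor of thioredoxin and glucose uptake, fell by 0.89 on the log2 scale (edgeR adjusted p = 0.00491 and 0.00843). Gadd45a fell by 0.60 on the log2 scale (edgeR adjusted p = 0.0268). That call was lost without control replicate 1 (0.0657), control replicate 2 (0.0684), PhenDC3 replicate 1 (0.103) or PhenDC3 replicate 3 (0.0803), and with total counts alone (0.0959).

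In the list of serine, proline and one-carbon metabolism, 10 of 12 genes fell and none rose, with a median log2 fold change of -0.96. Phgdh, the first enzyme of serine synthesis, had 160, 178 and 167 CPM in the controls and 56.1, 54.4 and 48.3 CPM in the PhenDC3 samples. That was a log2 fold change of -1.67 (SE 0.11, edgeR adjusted p = 5.34e-05). Mthfd1l of the mitochondrial folate pathway fell by 1.18 and Psph, the last enzyme of serine synthesis, by 1.08 on the log2 scale (edgeR adjusted p = 0.00051 and 0.00138). These genes are known targets of ATF4 like Asns, and the direction of Asns was opposite to theirs.

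Amino acid transporters and tRNA synthetases moved the same way. Among transporters, 6 of 10 tested genes fell and none rose, with a median log2 fold change of -0.76. Slc1a4, a carrier of neutral amino acids, fell by 1.53, the cationic carrier Slc7a3 by 1.16 and the leucine carrier Slc7a5 by 1.11 on the log2 scale (edgeR adjusted p = 0.00157, 0.000928 and 0.000491). Among the cytosolic tRNA synthetases, 12 of 20 genes fell and none rose (median log2 fold change -0.44), although 7 fell when the libraries were scaled by total counts alone. The leading falls were Vars (log2 fold change -1.06), Kars (-0.78) and Farsb (-0.74), which charge tRNA with valine, lysine and phenylalanine (edgeR adjusted p = 0.000686, 0.00105 and 0.00189).

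The 21 genes of ER protein folding, which the ATF6 and XBP1 arms of the unfolded protein response control, included 0 that passed (edgeR). At an unadjusted p under 0.05 there were 4, and DESeq2 called 1 as higher. The count of 0 was not kept when a library was left out, with 2 genes higher without control replicate 1, 1 higher without PhenDC3 replicate 2 and 3 lower without control replicate 3. With total counts alone, and with a mean CPM of at least 1, there was 1 gene higher in each case. A replicate block gave 1 gene higher and 4 lower. The most abundant gene of the list, the chaperone Canx, had a log2 fold change of 0.10 (SE 0.16, edgeR adjusted p = 0.664). Of 8 tested mitochondrial stress proteins, 2 fell, beside 18.7% of all genes tested. The protease subunit Clpp fell by 0.68 on the log2 scale (edgeR adjusted p = 0.00883). The protease Oma1, which relays mitochondrial stress to the integrated stress response, had -0.49 (edgeR adjusted p = 0.0448). That call was kept without control replicate 2 (0.0176) and lost without control replicate 1 (0.107), control replicate 3 (0.0997), PhenDC3 replicate 1 (0.12), PhenDC3 replicate 2 (0.0576) or PhenDC3 replicate 3 (0.146), and with total counts alone (0.137).

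Targets of p53 were listed separately because Trp53inp1 and Bbc3 are also in the list of ATF4 partners and targets. Of 10 genes 8 rose, with a median log2 fold change of 1.137. Bbc3 did not pass (log2 fold change -0.02, edgeR adjusted p = 0.945). After Trp53inp1 the leading rises were Btg2, an antiproliferative gene (log2 fold change 1.79, edgeR adjusted p = 9.4e-05), and Cdkn1a, which encodes the cell cycle inhibitor p21 (log2 fold change 1.24, edgeR adjusted p = 0.00017). Atf3 and Ddit4 are known to respond to p53 as well as to ATF4. Whether p53 or ATF4 had a part in their rises here was not tested.

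**Figure D3:**
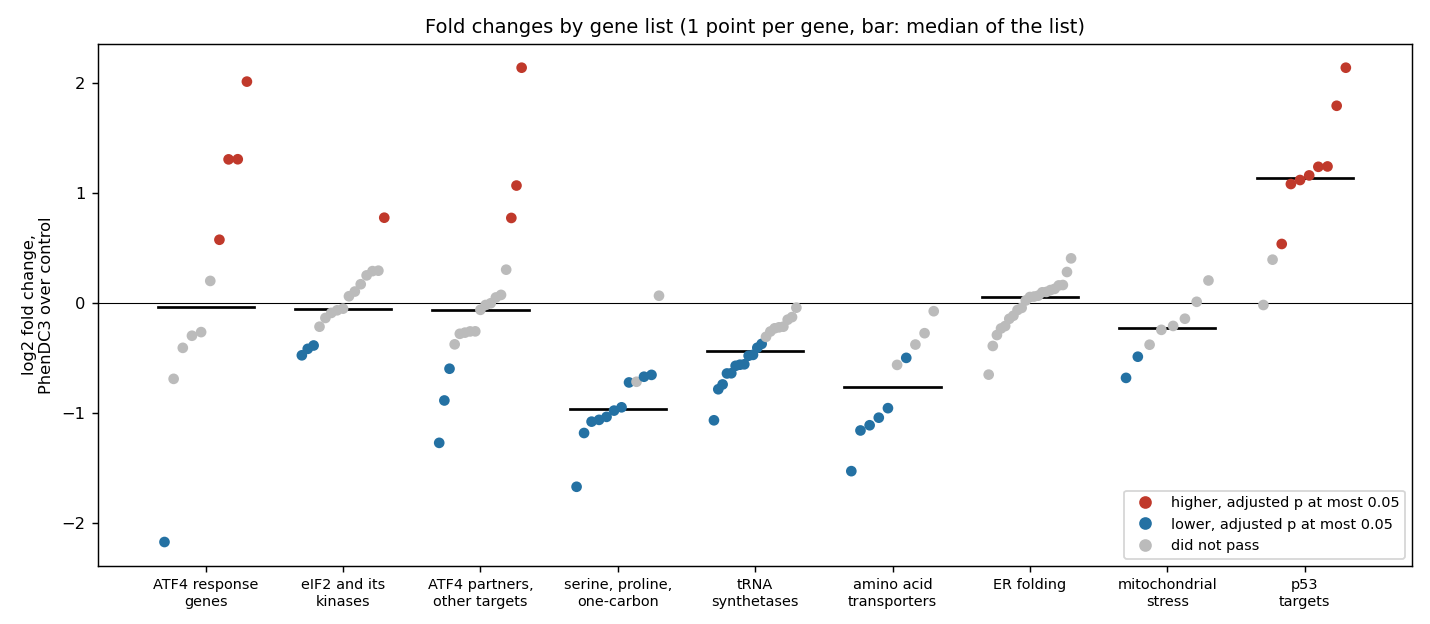
Log2 fold change of PhenDC3 over control for every tested gene of the 10 ATF4 response genes, the 7 lists of the surrounding pathway and the targets of p53 (1 point per gene, coloured by the call at an edgeR adjusted p of at most 0.05, bar at the median). The serine, tRNA synthetase and transporter lists lie mostly below 0, the p53 targets mostly above 0, and the ATF4 response genes spread from -2.17 to 2.01.

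SNS-seq peaks near the start sites of the members were described without a test, since each locus had 3 control lists and 2 PhenDC3 lists. The authors called the peaks in each sample with MACS2 against an RNase-treated library, and the lists give the fold enrichment but no read counts, so the depth is unknown. A peak within 2 kb of a start site was found for 8 of 10 members in at least 1 list, where 81.9% of the 11044 genes with a matched start site had one. For Ddit4 and Cebpb, 2 of the members, a peak was present in all 5 lists, as for 25.3% of genes. In control replicates 1, 2 and 3 there were 7, 5 and 2 members with a peak, beside 66.6%, 64.2% and 38.8% of genes. In PhenDC3 replicates 1 and 2 there were 6 and 4, beside 64.1% and 45.4% of genes. The members' shares were thus near those of all genes.

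At Ddit4, which rose, every list had a summit 84 to 164 bases downstream of the start site, with a fold enrichment of 3.15 to 6.97. The summits of the 3 control lists were at 112, 84 and 150 bases and those of the PhenDC3 lists at 164 and 145 bases. At Atf4 a summit lay 291 and 290 bases downstream in control replicates 1 and 2, and 289 and 315 bases downstream in the PhenDC3 lists, with fold enrichments of 5.02, 4.81, 5.54 and 4.41. Control replicate 3 had no peak there. Upstream of Atf4, control replicate 1 had summits at 435 and 173 bases and control replicate 2 at 461 and 165 bases. Their fold enrichments were 2.84 to 3.08, and neither PhenDC3 list had an upstream summit. Control replicates 1 and 2 and PhenDC3 replicate 1 also had summits further downstream. At Ddit3 the PhenDC3 lists had a single peak each, 435 and 446 bases upstream, at fold enrichments of 5.80 and 4.82. Control replicate 1 had a summit 406 bases upstream with a fold enrichment of 2.32 and 3 summits downstream at 2.65 to 3.10. Control replicate 2 had a summit 1376 bases upstream at 4.45, and control replicate 3 had no peak.

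Cebpb, a gene with few RNA counts, carried a peak upstream of the start site in every list. Its summits lay 653, 654 and 659 bases upstream in the controls and 630 bases upstream in PhenDC3 replicate 2. The PhenDC3 lists also had summits 324 and 344 bases upstream, in peaks that overlapped the wider upstream peaks of control replicates 1 and 2. The strongest enrichments were downstream in the controls, at 7.72 (880 bases, control replicate 1) and 6.05 (879 bases, control replicate 2). Atf3 had peaks in control replicate 1 and PhenDC3 replicate 1. Chac1 had a peak in control replicate 1, Trib3 in PhenDC3 replicate 1, and Vldlr in control replicates 1 and 2. Asns and Nupr1 had no peak within 2 kb in any list.

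**Figure D4:**
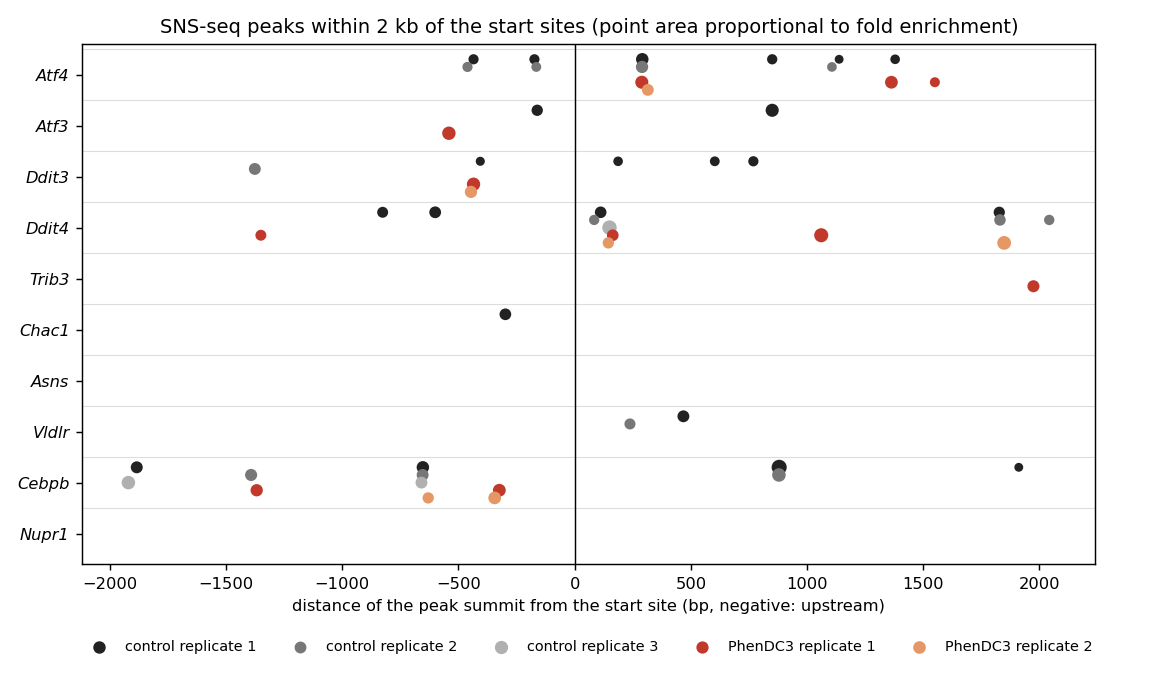
Distance in bases of each SNS-seq peak summit from the start site of the ATF4 response gene (negative is upstream), for 3 control and 2 PhenDC3 peak lists, with the area of a point proportional to the fold enrichment over the RNase-treated library. Ddit4 and Cebpb have peaks in all 5 lists, and Asns and Nupr1 have none.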

How the data were processed

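Per the labels and the study's methods, the authors mapped the RNA-seq reads with TopHat2 2.1.1 and Bowtie2 2.2.9 and deposited raw counts per gene from HTSeq 0.6.1p1. The RNA libraries were made with a stranded mRNA kit. The annotation and the strand setting of the counting are not given in the sources used here. For SNS-seq they mapped to mm10 with Bowtie2 2.2.5 and called peaks with MACS2 2.1.0, whose deposited lists give the ratio of a peak to the RNase-treated library (fold enrichment) and −log10 of the p-value. The deposited lists keep peaks that overlapped SICER regions. Tables of the authors' own fold changes with p-values and of normalized counts were not used.

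Counts were tested with edgeR 4.0.16 (quasi-likelihood, robust, RLE scaling, filterByExpr) on the 6 RNA-seq samples, with Benjamini-Hochberg adjustment over 13972 of 24079 genes and a threshold of 0.05. The script was first tested on simulated data. The SE is the log2 fold change over the square root of F. The alternatives were TMM, total counts, DESeq2 1.42.0, no filter, a mean CPM of at least 1, a replicate block and each sample left out. Promoter windows and start sites came from RefSeq (GRCm38.p6). Of the 11 windows of members, 11 equalled the genome.

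The members and lists were chosen with earlier results of these data known. Named besides the members are, from each list, up to 3 genes called higher and up to 3 called lower with the largest fold, or the most abundant gene where none was called. Bbc3 is named because it is in the lists of both ATF4 and p53 targets. Not tested for low counts were Cebpd, Fgf21 and Slc7a11, and Dele1 was not matched in the table. Intervals and p-values do not cover differences between cell lines.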

Additional observations from a re-analysis of the deposited data

How the results depend on the processing

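The 4 rises (Atf3, Ddit3, Ddit4 and Asns) kept their call under each of the 12 alternatives (highest adjusted p 0.0498, for Ddit3), while the number of members called lower, 1, was 2 with DESeq2 (Chac1 and Trib3) and between 0 and 2 with 1 sample left out. It is not given whether the replicate numbers pair the samples, and the main fit did not pair them. The count columns of same-numbered samples carry consecutive leading numbers. The correlations of the deviations of same-numbered samples were 0.09, 0.54 and 0.41, and each sample correlated best with its own number. With a replicate block 3 members were lower (Chac1, Trib3 with an edgeR adjusted p of 0.000404 and Atf4 with 0.00125), 9 genes of the surrounding pathway were higher in place of 4, and 3797 of all genes were higher in place of 2518. The block also gave 4 higher genes in the eIF2 list, and 1 higher and 4 lower in ER folding. With total counts alone, which moves the median of all genes by 0.15 (log2), 1688 of all genes were lower in place of 2617, and 7 genes of the pathway were higher. Leaving out 1 sample gave 1623 (without PhenDC3 replicate 1) to 2727 lower genes. Log2 fold changes that did not pass and turned sign were Cebpb (0.19, without control replicate 2), Nupr1 (0.57, without control replicate 2, and 0.04, without PhenDC3 replicate 3), Vldlr (-0.18, without control replicate 3) and Canx (-0.014, without control replicate 2). With 1 sample left out they ranged from -0.62 to 0.19 for Cebpb, -0.90 to 0.57 for Nupr1, -0.18 to 0.70 for Vldlr and -0.014 to 0.30 for Canx. Runs of blocks of at least 2 G were found in 10 members. The causes were not tested. Depth limits Cebpb and Vldlr most, which had at most 56 counts in a sample.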

Other observations

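Replicate 2 was the highest sample in both conditions for 8 of the 10 ATF4 response genes (80%), beside 3267 of the 13972 genes tested (23.4%). In the controls it was the highest for all 10 members, though the share of all genes for the controls alone was not counted. Chac1 stood at 16.5 CPM in control replicate 2 and at 2.46 CPM in control replicate 3, and Nupr1 at 12.8 and 2.38 CPM in the same samples. The PhenDC3 samples with the same numbers had 3.18 and 0.908 CPM of Chac1, and 9.20 and 2.58 CPM of Nupr1. The members thus varied between replicates of 1 condition by as much as, or more than, several of them differed between conditions. Whether the replicate numbers stand for shared culture days is not given in the sources used here, and the part of this spread in the members' fold changes was not tested.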
